A study of Bos taurus with 21 samples.

Results

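Small RNA was sequenced from extracellular vesicles, membrane-bound particles that cells shed into body fluids, purified from the serum of 21 cows (Bos taurus). Of these cows 7 were healthy controls, 7 had subclinical mastitis, an inflammation of the udder that shows no outward signs, and 7 had clinical mastitis, in which signs are visible. The labels used here name no breed, age, stage of lactation or infecting microbe. The deposited table held 847 rows: 298 are named as bovine miRNAs, and the names of the other 549 consist of a chromosome and a number. Described here are the numbered miRNAs that were read in some cows and not in others. They were chosen by their values: a numbered row had to be above 0 in 7 to 20 of the 21 cows, differ from every other such row in at least 1 cow, and not be 3_6921 or 7_15338. Of 320 numbered rows read in 7 to 20 cows, 45 were identical to another and 2 were excluded by name, which left 273 members. Another 147 numbered rows were read in all 21 cows and 82 in fewer than 7.

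A miRNA is a short RNA, cut from a hairpin precursor, that guides a silencing protein to messenger RNAs and lowers their output. Vesicles carry miRNAs through blood from the cells that released them, so a serum profile mixes contributions of many tissues. Fewer vesicles that carry a miRNA and fewer copies per vesicle cannot be told apart in such a profile. The numbered rows come with no sequence and no gene name, so neither is printed, no function can be given for any member, and the members are called by their row names.

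Members were low and were often seen as single reads. The deposited signal is in reads per 1000000 of the numbered rows' scaling total, and whole reads could be recovered from it. Of 5733 member values, 3779 (65.9%) were above 0, and 739 of those (19.6%) were exactly 1 read. A member had between 10 and 801 reads over all cows together, with a median of 64. Mean signal per member ran from 16.2 to 1606 with a median of 116, against a median of 1283 for the 147 numbered miRNAs read in every cow. At the lower edge of the rule, 24 members read in 7 cows had mean signals of 18.8 to 139, while 30 rows just outside, read in 6 cows, had 12.9 to 355. At the upper edge, 35 members read in 20 cows had mean signals of 148 to 1131, and the rows read in all 21 cows started at 164. The members lay on 34 chromosomes or scaffolds by their names, with 258 on chromosomes 1 to 29, 11 on X and 4 on unplaced scaffolds. Chromosome 5 held the most, 16 members or 5.86% of them, and it also held 5.10% of all numbered rows.

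Depth differed between the groups and sets what a 0 means. The numbered scaling total of healthy cows was 11330 to 30213 reads, that of subclinical cows 19619 to 28297 and that of clinical cows 27948 to 44607. One numbered read was therefore worth between 22.4 and 88.3 units of signal, the latter in healthy 7, the shallowest numbered library. That cow also stood apart from the other healthy cows in the members described below, so results that rest on it are given with and without it. Of known miRNAs that mark other sources in serum, the 3 liver miRNAs (miR-122, miR-192 and miR-885) summed to a median signal of 751 (range 0 to 9730) in the healthy group, 11917 (2153 to 31939) in the subclinical group and 655 (0 to 2457) in the clinical group, where miR-885 was at 0 throughout. The 3 red-cell miRNAs ranged from 3850 to 15221, from 5136 to 26603 and from 6721 to 11967 in the same order, with miR-144 at 0 in clinical cows. The 5 platelet and leukocyte rows ranged from 167027 to 317726, from 95285 to 380396 and from 195316 to 410088. Known rows had their own depth, with scaling totals of 1332 to 5550 reads in healthy, 3115 to 27453 in subclinical and 1337 to 33776 in clinical cows. In the shallowest of these libraries a low liver or red-cell signal, or a 0, can rest on very few reads. The liver miRNAs thus had their highest median in the group in which the members named below were also highest, and their part in that result was not tested.

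Counted as deposited, more members were read per cow in both mastitis groups than in the healthy group on average, but at equal depth this held for subclinical cows only. A healthy cow had 154 to 178 members with a read (median 163, mean 167 ± 8.40 SD, n = 7), a subclinical cow 147 to 210 (median 191, mean 188 ± 20.4, n = 7) and a clinical cow 174 to 196 (median 186, mean 185 ± 8.85, n = 7). With every library brought down to 13033 numbered reads, the expected numbers were 127 to 154 for healthy (mean 138 ± 10.2), 131 to 179 for subclinical (mean 158 ± 15.7) and 110 to 150 for clinical cows (mean 131 ± 15.6). At equal depth subclinical cows still had the highest mean, healthy and clinical cows differed by less than 1 SD, and all 3 ranges overlapped. No test was made on these sums, since the members were chosen with results known.

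**Figure D1:**
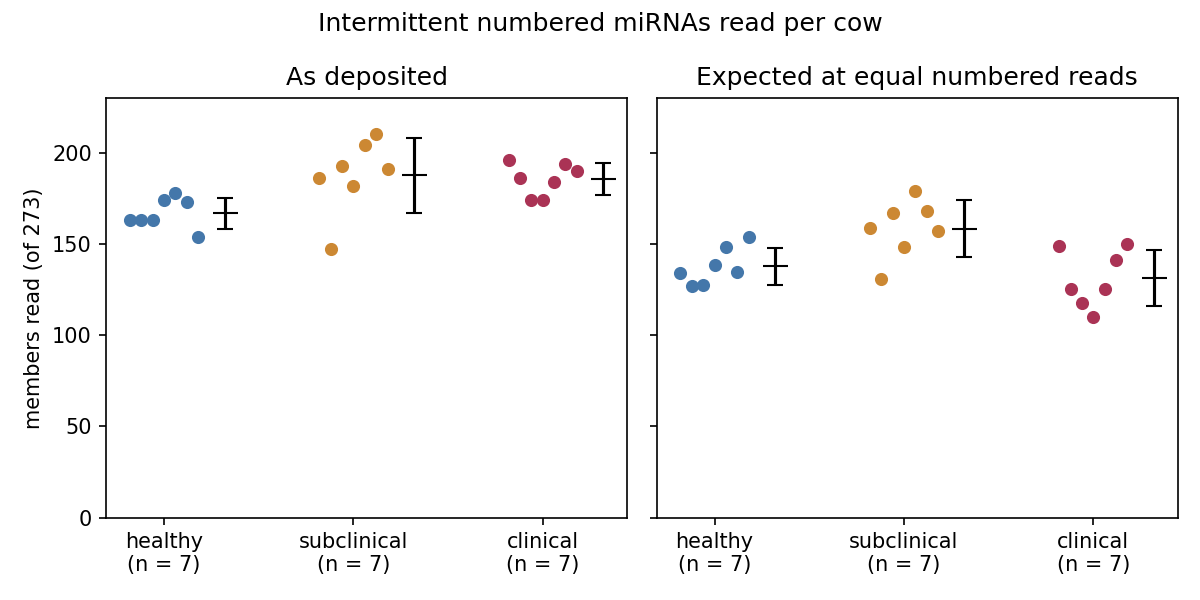
Number of the 273 members with at least 1 read in each cow, as deposited (left) and as computed for 13033 numbered reads per cow (right). Each point is a cow, and the black mark and bar at the right of each group are the mean and SD of 7 cows. Clinical cows drop from a mean of 185 to 131, while subclinical cows keep the highest mean.

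The group in which a member was read most often shifted in the same way. By the number of cows with a read, 25 members led in the healthy, 65 in the subclinical and 66 in the clinical group, and 117 were tied. At equal depth the expected number of cows was highest in healthy for 83 members, in subclinical for 127 and in clinical for 63. By mean signal, which is already relative to depth, 90 members (33.0%) led in the healthy, 134 (49.1%) in the subclinical and 49 (17.9%) in the clinical group. Without healthy 7 these counts were 94, 136 and 43. For comparison, 35.4% of the numbered miRNAs read in every cow and 43.3% of the 104 known miRNAs read in 7 to 20 cows had their highest mean signal in subclinical cows. That the subclinical group leads by mean signal therefore also holds for known miRNAs read as intermittently, though not for the numbered miRNAs read in every cow, of which 50.3% were highest in healthy cows.

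No member was present in every cow of one group and missing from every cow of another. All 7 cows held a read of 30 members in the healthy group, of 45 in the subclinical group and of 59 in the clinical group. Only 7 members were missing from a whole group. 4_9887 had 0 reads in healthy cows, against 8 reads in subclinical and 6 in clinical cows. 20_36099 and 17_32007 had 0 in subclinical cows, and 11_23005, 3_7521, 1_2621 and 9_18667 had 0 in clinical cows. With 189949, 187778 and 296277 numbered reads in the healthy, subclinical and clinical groups, a count of 0 still allows shares of up to 0.00158%, 0.00160% and 0.00101% of the numbered reads (3 reads over a group, counting error only). These members were singled out after their values were seen, apart from those that the comparisons below name.

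A Fisher exact test, two-sided, asked for each of 424 known or numbered rows read in 7 to 20 cows whether cows with a read fell unequally into 2 groups. After Benjamini-Hochberg adjustment it called 0% of rows in clinical versus healthy cows, 0% in subclinical versus healthy cows and 0% in clinical versus subclinical cows, and no member. At an unadjusted p under 0.05, 2, 9 and 15 of the 273 members differed in these comparisons, and 2, 19 and 23 of the 424 rows. The smallest adjusted p of a member was 1, 0.650 and 0.198. The smallest p that 7 against 7 cows can give is 0.000583. In clinical versus subclinical cows, 11 of the 15 were read in fewer clinical cows although clinical libraries were deeper. At equal depth all 13 members under that p were read in fewer clinical cows (smallest adjusted p 0.0618). A cow counted there as having a read if its chance of keeping at least 1 was 0.5 or more. That cutoff asks for more reads in deeper libraries, so it leans toward fewer clinical cows by itself. With 2 reads asked of every cow, 10 of 13 members were in fewer clinical cows and 3 in more. No row therefore passed the threshold. Over 424 rows, a single row at the smallest p of 0.000583 would not pass after adjustment. As deposited, no member was read in every cow of a group and in no cow of another. The test thus had little room to call a member, and no conclusion about presence is drawn from it.

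A test of level was passed by 20 members in at least 1 comparison, and all 20 passed as lower in clinical than in subclinical cows, by limma or by edgeR. The test was limma on log2(signal + 1) over 598 rows (131 known and 467 numbered), with an adjusted p under 0.05. All 273 members met its filter, since the rule already asks for 7 cows with a read. edgeR's quasi-likelihood test and DESeq2 on the recovered reads stand beside it. On the log2(signal + 1) scale each cow without a read enters at 0, so both the cows without a read and the level in the others enter a log2 change, and their parts in it were not separated.

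**Figure D2:**
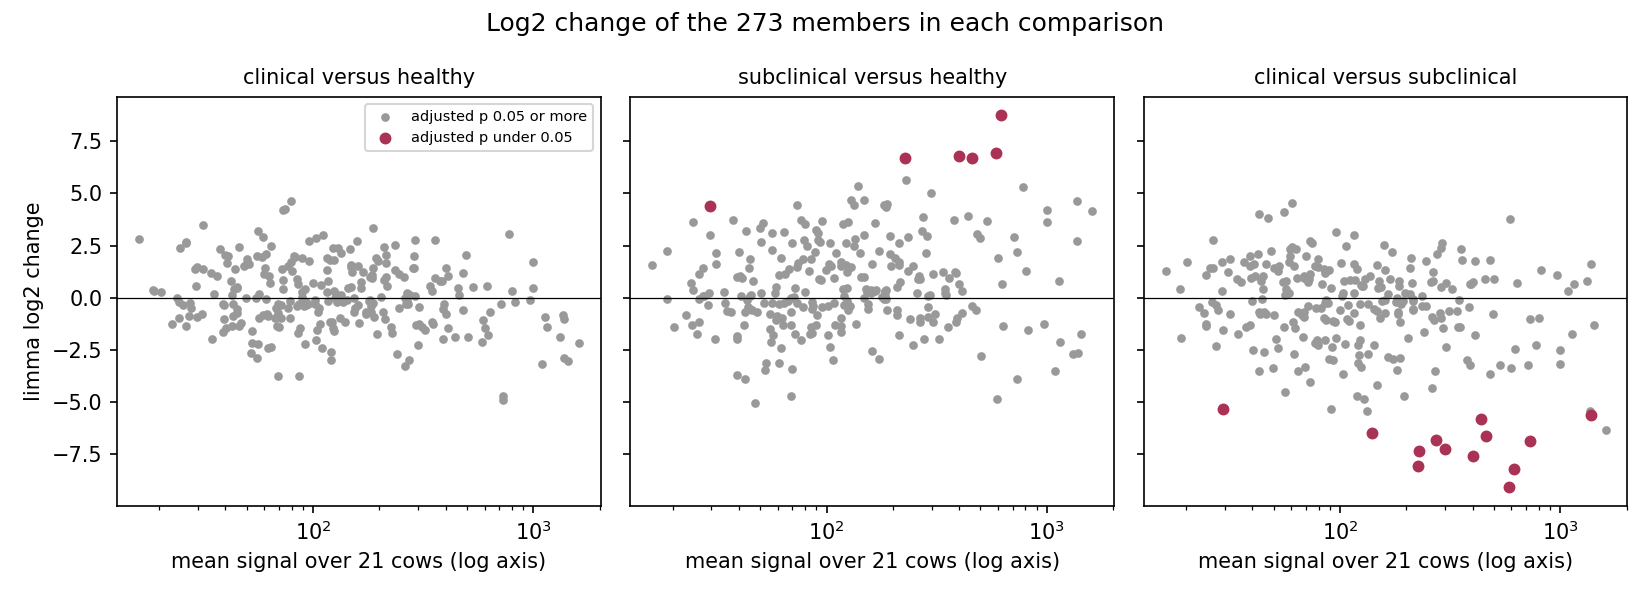
Limma log2 change (vertical axis) against mean signal over 21 cows (horizontal log axis) of the 273 members in each comparison. Each point is a member and red points have an adjusted p under 0.05: 0 in clinical versus healthy, 6 higher in subclinical versus healthy and 13 lower in clinical versus subclinical cows.

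In subclinical versus healthy cows, 6 of the 273 members (2.20%) rose and none fell by limma, against 1.51% of all rows called higher. The share is near that background. edgeR called 4 members higher, where 1.17% of all rows were, and DESeq2 called 6, where 1.51% of all rows were. At an unadjusted limma p under 0.05 there were 34 of the 273 members and 80 of the 598 rows, so members were no more frequent than rows. The median log2 change was 0.35 over the members and 0.26 over all rows. Only 2 members, 1_1270 and 11_22742, had the signal of every subclinical cow above that of every healthy cow, where 0.334% of all rows did.

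1_1270 had 0 to 4 reads in healthy cows (median 0), 7 to 148 in subclinical cows (median 15) and 0 to 1 in clinical cows (median 0). All 7 subclinical cows carried it, with subclinical 1 at the top, and their reads overlapped with neither other group. Its mean signal was 1704 ± 2263 in the subclinical group and 46.0 ± 61.7 in the healthy group (SD over 7 cows each), a 37.1-fold difference (19.4-fold without subclinical 1, 60.4-fold without healthy 5). The limma log2 change was 6.94 ± 1.49 (SE, adjusted p = 0.0161, above the healthy mean in 7 of 7 subclinical cows), and it passed in 21 of 21 fits that each left out 1 cow.

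11_22742 followed the same cows. It had 0 to 6 reads in healthy cows, all in healthy 5, 5 to 146 in subclinical cows (median 12) and 0 to 4 in clinical cows. In reads healthy 5 lay above subclinical 2, and in signal, which allows for depth, below it. Mean signal was 55.1-fold higher in subclinical than in healthy cows (31.2-fold without subclinical 1), with a log2 change of 8.75 ± 1.51 (SE, limma adjusted p = 0.00441, 7 of 7 cows above the healthy mean). Without healthy 5 no fold can be given, since no other healthy cow held a read. Per-cow reads of 11_22742 and 1_1270 matched for 90.0% of the reads, with equal reads in 10 of 21 cows, so the pair should not be counted as independent miRNAs.

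16_30460 was steadier among subclinical cows, at 3 to 26 reads (median 15). In healthy cows it had 0 to 6 reads and in clinical cows 0 to 1. Of its 7 healthy reads, 6 came from healthy 7, which overlapped with the subclinical cows, and 1 from healthy 1. Its log2 change was 6.69 ± 1.45 (SE, limma adjusted p = 0.0161, 7 of 7 cows above the healthy mean), and mean signal was 7.27-fold higher with healthy 7 and 84.7-fold higher without it. Neither edgeR (adjusted p = 0.138) nor DESeq2 (adjusted p = 0.158) called it, and over 18 alternatives its adjusted p ran from 0.00180 to 0.159.

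The other 3 members that rose by limma were less stable. 14_26999 had 0 to 17 reads in healthy cows, of which 17 were in healthy 7 and 3 in healthy 5, and 4 to 44 in subclinical cows (median 17; log2 change 6.79 ± 1.74, limma adjusted p = 0.0449). Its mean signal was 4.13-fold higher in subclinical cows with healthy 7 and 49.9-fold higher without it. 3_7521 had 1 read over the healthy, 12 over the subclinical and 0 over the clinical cows (log2 change 4.38 ± 1.14, limma adjusted p = 0.0456), a ratio of 12.1 per numbered read with an exact 95% counting interval of 1.80 to 519. That healthy read was in healthy 7, without which no ratio can be given. 11_23000 had 0 to 4 reads in healthy cows, all 4 in healthy 7, and 0 to 135 in subclinical cows (median 10; log2 change 6.72 ± 1.77, limma adjusted p = 0.0475). Mean signal of 11_23000 was 26.2-fold higher in subclinical cows and 10.7-fold without subclinical 1, which held 135 of its reads. With 1 cow left out at a time, 14_26999, 3_7521 and 11_23000 passed limma in 4, 2 and 2 of 21 fits. 14_26999 passed without healthy 5, healthy 7, clinical 6 or clinical 7, 3_7521 without healthy 7 or subclinical 4, and 11_23000 without healthy 7 or subclinical 7. Neither edgeR nor DESeq2 called 14_26999 or 3_7521 here, while edgeR called 11_23000 and kept it in 13 of 21 such fits. 5_10235, which edgeR alone added, had the largest mean signal of all members. It ran from 0 to 6 reads in healthy cows and from 0 to 462 in subclinical cows, of which subclinical 1 (462) and subclinical 5 (248) held nearly all (edgeR adjusted p = 0.0399; 0.0114 to 0.693 over 18 alternatives).

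Among fits that left out a single cow, the number of members passing in this comparison changed most without healthy 7. Leaving out other cows changed it as well. Healthy 7 held a read of 19 of the 20 members that passed in any comparison. The other healthy cows held 6 to 13 of them and subclinical cows 15 to 20. Of the 573 reads of these 20 members in healthy cows, 296 were in healthy 7. Without it, limma called 16 members between subclinical and healthy cows in place of 6, and 15 of the 16 were higher. These are 5.49% of the members, where 4.85% of all rows were called higher and 0.669% lower, so the rise in calls was not particular to the members. All 6 members above were among them, and 12 of the 16 belong to the 20. edgeR without healthy 7 called 17 members in place of 4, of which 16 (5.86%) were higher, where 4.35% of all rows were called higher and 0.502% lower. The single lower call was 3_6483 by limma and 20_36099 by edgeR.

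**Figure D3:**
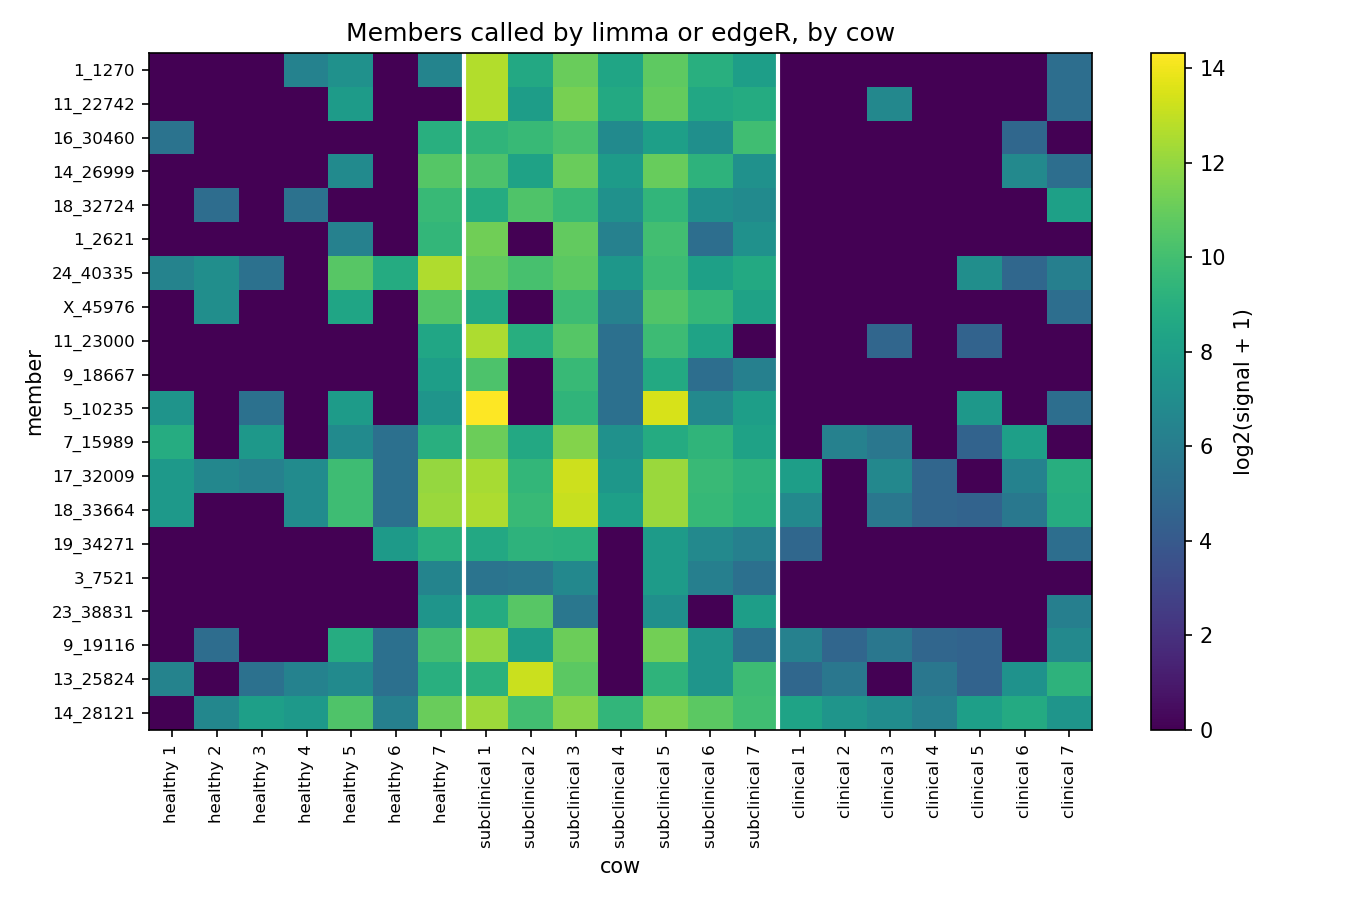
Log2(signal + 1) of the 20 members called by limma or edgeR (rows) in each cow (columns, white lines between groups), ordered by limma log2 change from subclinical to clinical. Dark cells are cows without a read. Subclinical cows hold 15 to 20 of the 20 members, healthy 7 holds 19, healthy 5 holds 13 and clinical 7 holds 14, more than the rest of their groups.

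In clinical versus subclinical cows, 13 members (4.76%) fell and none rose by limma, against 3.85% of all rows called lower. edgeR called 19 members lower, where 5.52% of all rows were, and DESeq2 called 21, where 5.85% of all rows were. These shares are close to their backgrounds, so lower values in clinical than in subclinical cows were not particular to the intermittent miRNAs. At an unadjusted limma p under 0.05 there were 31 of the 273 members and 74 of the 598 rows. The median log2 change was -0.28 over the members and -0.37 over all rows. With the numbered total taken without 4_9843, the medians were -0.12 and -0.21. The signal of every clinical cow lay below that of every subclinical cow for 6 members, 1_1270, 11_22742, 16_30460, 14_26999, 24_40335 and 14_28121, where 1.67% of all rows did so. This comparison shares its subclinical cows with the one above, so the names that recur in both are not independent of each other.

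Of the 6 members that rose in subclinical versus healthy cows, all 6 also passed here. 1_1270 fell by 9.07 ± 1.49 on the log2 scale (SE, limma adjusted p = 0.00221), with 266 reads in subclinical cows and 1 read in clinical cows. Per numbered read this is a ratio of 420 with an exact 95% counting interval of 74.7 to 16639. Subclinical 1 held 148 of the 266 reads, and without it the ratio was 216 (38.0 to 8603). The single clinical read was in clinical 7, without which no ratio can be given. 16_30460 fell by 8.07 ± 1.45 (limma adjusted p = 0.00274), from 93 reads to 1, a ratio of 147 with an interval of 25.7 to 5857, and no ratio without clinical 6, which held that read. 11_22742 fell by 8.18 ± 1.51 (limma adjusted p = 0.00274), and its mean signal was 92.6-fold higher in subclinical cows (52.5-fold without subclinical 1, 302-fold without clinical 3). 14_26999 fell by 7.57 ± 1.74 (limma adjusted p = 0.0115), a 46.9-fold difference that became 160-fold without clinical 6. All 4 had every clinical cow below the subclinical mean and passed in 21 of 21 fits with 1 cow left out.

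Reads in clinical cows were absent for 3 of the members that passed. 1_2621 had 0 to 53 reads in subclinical cows (median 4), 119 in all, and 0 to 8 in healthy cows, of which 8 were in healthy 7. Against the limit of 3 reads over the clinical group, it was at least 62.6-fold higher in subclinical cows, and at least 40.3-fold without subclinical 1, which held 53 of the reads (limma adjusted p = 0.0132). 9_18667 had 58 reads in subclinical cows, 3 in healthy cows, all in healthy 7, and was at least 30.5-fold higher than in clinical cows, and at least 17.7-fold without subclinical 1, which held 29 of the reads (limma adjusted p = 0.0115). 3_7521 was at least 6.31-fold higher in subclinical cows on 12 reads (limma adjusted p = 0.00984). Subclinical 2 held no read of 1_2621 or 9_18667, and subclinical 4 none of 3_7521, so each overlapped with the clinical cows at 0.

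24_40335 and 18_32724 were high in healthy 7 as well. 24_40335 had 5 to 42 reads in subclinical cows (median 20), 0 to 6 in clinical cows (median 0) and 0 to 72 in healthy cows (median 4), with healthy 7 highest of all 21 cows. Its mean signal was 929 ± 673 in the subclinical group and 33.2 ± 51.9 in the clinical group (SD over 7 cows each), 27.9-fold apart (56.8-fold without clinical 5; limma adjusted p = 0.0126). 18_32724 had 3 to 26 reads in subclinical cows (median 10) and 0 in every clinical cow except clinical 7, which had 8 (limma adjusted p = 0.0115). edgeR did not call 18_32724 (adjusted p = 0.110) and neither did DESeq2 (adjusted p = 0.111), and over 18 alternatives its adjusted p ran from 0.00046 to 0.954.

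17_32009 and 18_33664 were among the 5 members with the largest mean signal and matched for most of their reads, with equal reads in 6 of 21 cows. 17_32009 had 1 to 49 reads in healthy cows (median 3), 5 to 188 in subclinical cows (median 24) and 0 to 14 in clinical cows (median 3). It fell by 5.59 ± 1.38 (SE, limma adjusted p = 0.0188), and the call was lost without subclinical 1, subclinical 3 or subclinical 5. Its mean signal was 22.8-fold higher in subclinical cows (15.1-fold without subclinical 3, 40.6-fold without clinical 7). 18_33664 missed the limma threshold (log2 change -5.44 ± 1.65, adjusted p = 0.0741) and was called by edgeR (adjusted p = 0.0162; 0.000800 to 0.982 over 19 alternatives). Their reads matched for 95.1%, so the pair should not be counted as independent miRNAs. At low counts they differed: 17_32009 had 3 reads in healthy 2 and 10 in clinical 1, where 18_33664 had 0 and 4. Whether such differences set the limma call apart from the miss was not tested.

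The remaining calls rested on fewer fits or on count tests alone. 11_23000 (limma adjusted p = 0.0370), 7_15989 (0.0446) and X_45976 (0.0446) passed limma in 11, 9 and 8 of 21 fits with 1 cow left out. 11_23000 was lost without any of subclinical 1, 2, 3, 5 and 6 or clinical 1, 2, 4, 6 and 7. 7_15989 passed only without healthy 1, 2, 3, 4 or 7, subclinical 4, or clinical 2, 3 or 6, and X_45976 only without healthy 1, 2, 3, 4, 5 or 7, subclinical 2 or clinical 7. edgeR called all 3. It kept 11_23000 and X_45976 in 21 of 21 such fits, and lost 7_15989 in the fit without subclinical 3. edgeR also called 5_10235, 14_28121, 19_34271, 23_38831, 9_19116 and 13_25824, which limma did not. 14_28121, read in 20 cows, had 18 to 108 reads in subclinical cows (median 47) and 3 to 16 in clinical cows (median 7), a 9.75-fold difference in mean signal (edgeR adjusted p = 0.0157; 0.000763 to 0.976 over 19 alternatives). With 1 cow left out, edgeR kept 19_34271, 23_38831, 9_19116 and 13_25824 in 12, 13, 15 and 12 of 21 fits, and 5_10235 and 14_28121 in all 21. 13_25824 had 182 of its 315 reads in subclinical 2, and its 14.3-fold difference was 5.06-fold without that cow and 36.4-fold without clinical 7. 7_15989, 19_34271, 23_38831, 9_19116 and 13_25824 fall outside the rule for named members and were named after their values were seen.

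Between clinical and subclinical cows, depth and group cannot be told apart, since the subclinical and clinical ranges of numbered totals met only between 27948 and 28297 reads. With depth as a covariate in limma, 0 members passed between clinical and subclinical cows, where 0% of all rows were called lower. Between subclinical and healthy cows, whose numbered depth overlapped, 12 members (4.40%) were called higher, as were 3.18% of all rows. Between clinical and healthy cows 1 member was called higher, where 0.167% of all rows were. On numbered reads thinned to equal depth, limma called 11 members (4.03%) lower in clinical than in subclinical cows, where 2.51% of all rows were, with 10 of the 11 among the 13, and all 20 members that passed a test above had lower fitted values in clinical cows.

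The weight of these 20 members in the numbered signal was small and uneven. Together they took 0.269 to 6.27% of the numbered signal in the subclinical group (median 1.69%), 0.0468 to 2.27% in the healthy group (median 0.0828%) and 0.0183 to 0.226% in clinical cows (median 0.0637%). The 2.27% was healthy 7, and without it the healthy mean was 0.159 ± 0.216% (SD, n = 6). The other 253 members took 4.88 ± 1.39% of it in the healthy group, 4.38 ± 0.69% in the subclinical group and 3.27 ± 1.21% in the clinical group (SD over 7 cows each). All members together took 5.34 ± 1.89%, 6.79 ± 2.63% and 3.35 ± 1.27% in the same order. Since the 20 were picked by these contrasts, their shares are a description only.

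**Figure D4:**
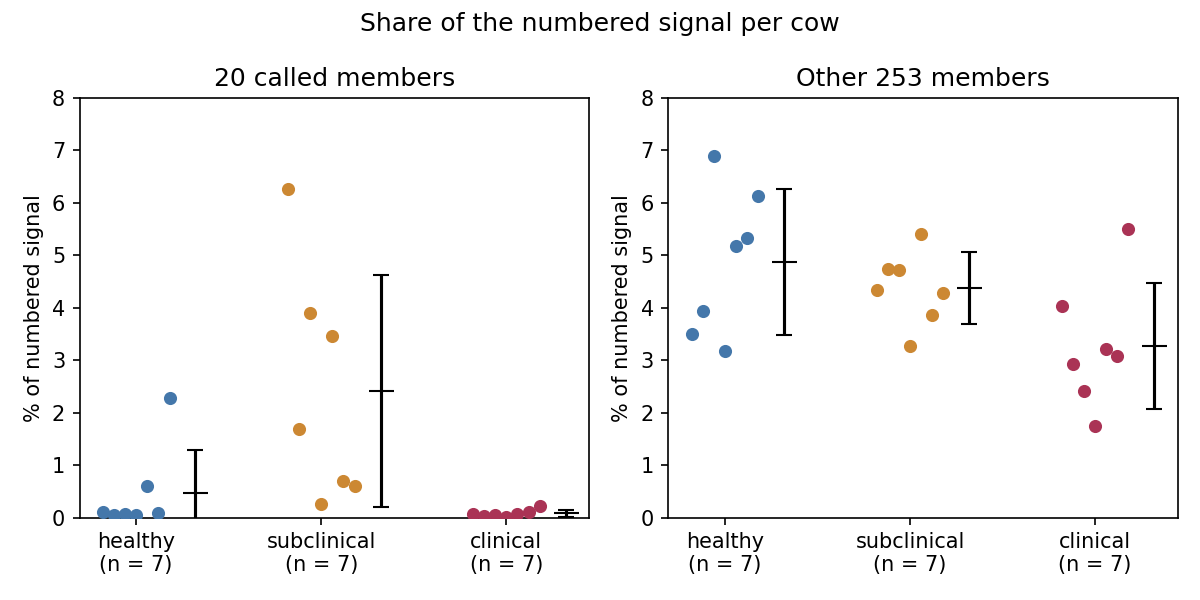
Percent of the numbered signal per cow taken by the 20 called members (left) and by the other 253 members (right), on the same scale. Each point is a cow, and the black mark and bar are the mean and SD of 7 cows, with the bar of the healthy group on the left ending at the axis. The 20 reach 6.27% in 1 subclinical cow and 2.27% in healthy 7 and stay under 0.23% in clinical cows, while the others overlap between all groups.

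In clinical versus healthy cows no member passed by limma, which called 0% of all rows higher and 0% lower. At an unadjusted p under 0.05 there were 11 of the 273 members by limma and 22 by edgeR, which also called none. Of the 598 rows, 37 were under it by limma and 55 by edgeR. DESeq2 called 3 members lower, 24_40335, X_45976 and 1_1616, where 0.836% of all rows were lower. 1_1616, named after its values were seen, had 64 of its reads in healthy 1 and 47 in healthy 5, with 0 or 1 in every clinical cow. The median log2 change was -0.07 over the members and -0.12 over all rows. With the numbered total taken without 4_9843, both turned positive, at 0.09 and 0.03, so their sign depends on that row.

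The smallest limma p in this comparison belonged to 24_40335, whose signal was lower in clinical cows by 4.68 ± 1.60 on the log2 scale (SE, adjusted p = 0.533). Among members with higher values in clinical cows, 15_28919 had 0 to 10 reads in clinical cows (median 5) and was read in 6 of 7 of them, while only healthy 3, with 7 reads, held it among healthy cows (log2 change 4.62 ± 1.75, limma adjusted p = 0.533). 11_22786 was also read in 6 clinical cows and in 1 healthy cow, healthy 6, which with 10 reads was nearly as high as the highest clinical cow at 11. The unadjusted Fisher exact p was 0.0291 for both and the adjusted p was 1. 6_14152, 4_8480 and 14_27076 followed, with log2 changes of 4.19, 3.48 and 3.22 and limma adjusted p of 0.702, 0.702 and 0.762. On the lower side, 3_6483, 16_30161, 20_35436 and 17_32009 had log2 changes of -3.76, -3.73, -4.89 and -2.88 and limma adjusted p of 0.702, 0.702, 0.702 and 0.793. The reads of 20_35436 were concentrated in healthy 3 (155), healthy 6 (131) and healthy 5 (44), with 34 in clinical 5.

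A few members had the opposite pattern to the 20, with least in subclinical cows, and none passed limma, edgeR or DESeq2 with all cows in the fit. Under other settings 20_36099, 3_6483 and 17_32007 did. edgeR without the cows numbered 7, an alternative chosen after seeing the data, also called 4 members lower in subclinical than in healthy cows. These were 11_22094, 5_11881, 20_35436 and NKLS02002111.1_47302, of which 11_22094 and 5_11881 were named after their values were seen. That fit left out subclinical 7, which held 33, 49, 35 and 31 reads of them, the most of any subclinical cow. With all cows kept, the mean signal of 20_35436 was higher in subclinical than in clinical cows, so it was not least in subclinical cows. In subclinical versus healthy cows, 20_36099 passed limma without healthy 2 (adjusted p = 0.0398) or healthy 5 (0.0344) and edgeR without healthy 7 (0.0412), and 3_6483 passed limma without healthy 7 (0.0308) or without the cows numbered 7 (0.00588). In clinical versus subclinical cows, 17_32007 passed limma fitted to those groups alone (adjusted p = 0.0472) and edgeR without healthy 7 (0.0478). Over the alternatives that left out no single cow, the adjusted p ran from 0.0520 to 0.243 for 20_36099, from 0.00588 to 0.426 for 3_6483 and from 0.0472 to 0.435 for 17_32007 in these comparisons. 20_36099 had 17 reads over 5 healthy cows, 0 in subclinical cows and 10 over 5 clinical cows. Against the limit of 3 reads it was at least 5.60-fold higher in healthy and at least 2.11-fold higher in clinical than in subclinical cows, the latter 1.23-fold without clinical 6 (limma adjusted p = 0.0764 and 0.181). 3_6483 had 28 reads in healthy, 3 in subclinical and 11 in clinical cows (limma adjusted p = 0.159 and 0.844). 17_32007 had 11 reads in healthy, 0 in subclinical and 19 in clinical cows (limma adjusted p = 0.384 and 0.127). 21_37031 had 13 reads in healthy cows and 14 in clinical cows but only 1 in subclinical cows (limma adjusted p = 0.198 and 0.163). 10_21460, 1_1576 and 5_11697 also had values lower in subclinical than in healthy cows, with limma adjusted p of 0.159, 0.262 and 0.580. 10_21460 had 215 reads in healthy 2 and at most 33 in any other cow.

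Single cows shaped much of the level of the most abundant members. The cow with most reads of a member held a median of 21.4% of them, from 8.92 to 64.3%. In 13 members 1 cow held more than 50%, and this was subclinical 1 for 5 of them. NKLS02002111.1_47302 had 425 reads in healthy 3 and 130 in healthy 5, against 0 to 31 in subclinical cows. 20_35647 had 3 to 152 reads per healthy cow, 0 to 101 per subclinical cow and 0 to 84 per clinical cow, and all 3 groups overlapped. With all cows in the fit, neither of these passed limma, edgeR or DESeq2 in any comparison (limma adjusted p from 0.515 to 0.959).

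Several of the 20 rose and fell across the same cows. Over 21 cows that share 3 groups and differ in depth, log2(signal + 1) of 1_2621 was most like that of 9_18667 (Pearson r = 0.95) and then X_45976 (0.88). 1_1270 was most like 14_26999 (0.87) and 11_22742 (0.86), and 16_30460 was most like 3_7521 (0.86) and 14_26999 (0.84). These are descriptions without a test, since cows at 0 in common raise such values. Beyond the pairs above, 11_22094 and 5_11881 matched for 88.6% of their reads, 29_43994 and 5_11787 for 83.7%, and 10_21141 and 19_34660 for 80.5%, so the 273 members hold fewer than 273 independent patterns.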

How the data were processed

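The members, lists and alternatives were chosen with earlier results of these data known. RNA was extracted from serum vesicles with the miRNeasy Mini kit and made into TruSeq small RNA libraries, per the labels' protocols. Bowtie, edgeR and the ARS-UCD1.2 build are named without a role, per the submitters' processing notes, with trimming and counting not stated there. The values that the authors deposited are a signal in reads per 1000000, scaled separately for known and for numbered rows. From it whole reads were recovered for each cow, separately for known and numbered rows, and all 10115 nonzero values (100%) came out whole within 0.05 reads. The scaling totals of the 2 blocks differed in all 21 cows, so each block has its own step. The design had been written for normalized values, and limma on them stayed the main test.

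limma with an intensity trend was fitted on log2(signal + 1) to all 21 cows with 3 group means, for the 598 rows that reached a signal of 1 in 7 or more cows, and was two-sided with Benjamini-Hochberg adjustment. The table was also tested with edgeR's quasi-likelihood test and DESeq2 on recovered reads, scaled within known and within numbered rows. An adjusted p that DESeq2 left empty was not counted. Presence was tested with Fisher's exact test. Expected presence at equal depth was computed exactly for draws of 13033 numbered reads. For the Fisher test at equal depth, a cow counted as having a read where this chance was at least 0.5. Intervals and limits (3 reads over a group) cover counting error only, since PCR copies were not told apart. limma, edgeR and the Fisher exact test were tested on simulated data, and DESeq2 was not. Python 3.11.15 was used with scipy 1.17.1, pandas 2.3.3, numpy 2.4.6 and matplotlib 3.10.9, and R 4.3.3 with DESeq2 1.42.0, edgeR 4.0.16 and limma 3.58.1.

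Members were named by a rule: up to 10 higher and 10 lower by limma and by edgeR per comparison, filled to 5 in a direction by the smallest p, plus the 5 with the largest mean signal. Near copies are pairs with at least 80% of reads matched cow by cow. The cows numbered 7 here stand in columns numbered otherwise in the table, and were mapped by the labels. Alternatives changed the pseudocount, filter, scaling, samples, depth handling and tool, and left out each cow in turn.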

Additional observations from a re-analysis of the deposited data

Results flagged for a closer look

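In groups of 7 cows, a cow was picked out where its gap to the next cow was a larger part of the group's range than Dixon's 95% critical value, which chance does in about 1 in 20 groups. Healthy 7 was picked out in 2 measures: its numbered scaling total was 11330 reads, the lowest, and the 20 called members took 2.27% of its numbered signal, the highest healthy share. Clinical 7 had the lowest clinical numbered total, 27948, the highest known total, 33776, and the highest clinical share of the 20 members, 0.226%. Of 60 member and group combinations, 5 had a cow standing apart, always one listed at 0 on the log2 scale while the rest of its group had a read: 13_25824 in healthy 2, 19_34271 and 3_7521 in subclinical 4, 9_19116 in clinical 6 and X_45976 in subclinical 2. The value was 0 in each.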

How the results depend on the processing

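No member was called between clinical and healthy cows in the main fit, 3 were by DESeq2 and 1 with depth as a covariate. Between subclinical and healthy cows, 6 members were called in the main fit. There were 3 with no filter, with median-ratio scaling, with numbered rows only and with edgeR on 1 scale. Of all rows tested, these settings called 7 of 847, 6 of 598, 5 of 467 and 6 of 598 higher. The main fit called 9 of 598 higher. With only the groups compared there were 2, and with a filter of at least 14 samples 0, where 4 of 598 and 2 of 380 rows were called higher. The depth covariate gave 12, and leaving out the cows numbered 7 gave 17, of which 16 were higher and 1 lower. Over the 598 rows, these settings called 19 higher and 3 lower, and 28 higher and 5 lower. The main fit called 9 higher and 3 lower, so the change was not particular to the members. Leaving out 1 cow gave 3 to 16 by limma and 2 to 17 by edgeR, the highest without healthy 7. edgeR without the cows numbered 7, an alternative chosen after seeing the data, called 21 in place of 4. Of the 21, 17 were higher and 4 lower in subclinical cows. Over the 598 rows it called 26 higher and 6 lower, where edgeR with all cows called 7 higher and 1 lower. Between clinical and subclinical cows, the 13 calls became 21 by DESeq2, 2 with the filter of at least 14 samples and 0 with the depth covariate. Of all rows, 35 of 598, 6 of 380 and 0 of 598 were called lower in these settings, and 23 of 598 in the main fit. With 1 cow left out, member calls ranged from 9 to 15 by limma and 13 to 24 by edgeR. The filter itself leaves out members read in fewer cows, and for the other settings the cause was not tested. Of the 20 members that passed a test, 16 had lower fitted values in clinical than in healthy cows in the main fit and 2 with the depth covariate. The 14 that turned, 17_32009 (0.96) among them, had log2 changes of 0.04 to 5.19 and none passed (smallest adjusted p by limma 0.231). In clinical versus subclinical cows 9_19116 (0.51), 23_38831 (0.42) and 13_25824 (0.95) turned likewise. Requiring 2 reads for presence gave means of 132, 156 and 146 members in healthy, subclinical and clinical cows, against 138, 158 and 131 at equal depth. Shares of the numbered signal without 4_9843 were 7.73, 9.69 and 5.49%. Cows that share a replicate number were not paired: of 21 pairs, 3 had correlated deviations above 0.1 (-0.12 to 0.31). The highest, 0.31, was healthy 7 with clinical 7, both picked out above, and its cause was not tested. With a replicate block 3 members were called between subclinical and healthy cows, where 6 of 598 rows were called higher and 2 lower. Of the member values above 0, 19.6% were 1 read, which limits what presence can show at this depth.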
